A study of Mus musculus with 8 samples.

Results

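The genes described here are Hsp90b1, the gene of the endoplasmic reticulum (ER) chaperone Grp94, and 9 others. These sense misfolded protein in the ER or pass on its signal, help proteins fold there or remove those that fail to fold. All 10 were chosen by symbol, with their values already known, out of the 2454 gene symbols in a table of 2395 transcript clusters. A transcript cluster is the group of transcripts that an Affymetrix Mouse Gene 1.0 ST array reports as 1 value. Each of the 10 genes had 1 transcript cluster, and none shared it with another symbol.

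Neuro2a (N2a) cells, which come from a mouse neuroblastoma, were the source of the RNA. Of 8 arrays, 4 were of cells labelled Vector knockdown, which the series' design text describes as an empty vector, and 4 of cells given miR RNAi vectors, which express an artificial microRNA against the Hsp90b1 mRNA. Both groups were transfected by lipid reagent and harvested after 2 days, and both carried the same expression backbone, which also encodes a green fluorescent protein. The study's methods name several Grp94 constructs and, besides the empty vector, a non-targeting one, without a map from construct to array in the labels. The table gives 1 mean per group, so no spread between the 4 arrays can be shown, no test was run, and the differences below are descriptions of the authors' means. Every listed row had passed the authors' own limit of 0.01 on the adjusted p, and genes outside the table have no value here. In RNA of whole cultures, fewer cells that express a gene and less RNA per cell cannot be told apart.

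Proteins that enter the ER are folded by chaperones, oxidised by disulfide isomerases and, when folding fails, pulled back to the cytosol for degradation. Unfolded protein activates the sensors IRE1 (gene Ern1), ATF6 and PERK (gene Eif2ak3), and the resulting unfolded protein response (UPR) raises transcription of chaperone and degradation genes. Grp94 is the HSP90 of the ER lumen and matures integrins, Toll-like receptors and insulin-like growth factors. Many UPR genes carry the ER stress response element (ERSE), in which NF-Y, the factor studied in the wider project, holds the CCAAT part and ATF6 or XBP1 the CCACG part.

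All 10 genes were lower in the Grp94 knockdown than in the empty vector. The difference of the log2 means, knockdown minus vector, ran from -1.52 for Hsp90b1 to -0.19 for Sel1l, with a median of -0.38. Of all listed transcript clusters 59.9% were lower by any amount, and their median difference was -0.16. A fold of 1.3 between the means was passed by 5 of the 10 genes, namely Hsp90b1, Ero1l, Dnajb9, Atf6 and Herpud1. Of all listed transcript clusters 16.1% passed it in the same direction. The genes were picked from this comparison, so neither count is evidence about them as a group. With all differences re-centred on the median of -0.16, Dnajb9, Atf6 and Herpud1 no longer passed, which left 2 of the 10, and the 385 lower and 150 higher transcript clusters past the fold became 159 and 527.

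Hsp90b1 was the largest decrease of the 10. Its mean was 0.74 in the vector and -0.78 in the knockdown, on a log2 scale that the authors centred for each transcript cluster, so that a value shows a distance from the middle of the arrays and not a level of expression. The difference of -1.52 is a 2.87-fold decrease and leaves 34.9% of the vector signal. Only 2 of the 2395 transcript clusters had a lower difference. The transcript cluster was read by 37 probes along chromosome 10, bases 86153585 to 86168195 on the minus strand. Positions of transcript clusters are those of the deposited table, whose genome build is not given in the sources used here. They should not be compared with the promoter windows printed below. For Herpud1, the transcript cluster starts at base 96910400 and the window at base 94386179 of the same chromosome. The genes with the nearest differences to that of Hsp90b1 were Car6, a secreted carbonic anhydrase (-1.54), Fam129a (-1.48) and Cth, an enzyme of cysteine synthesis (-1.46), out of all transcript clusters with a single symbol. With 2 group means this likeness is one of size alone.

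**Figure D1:**
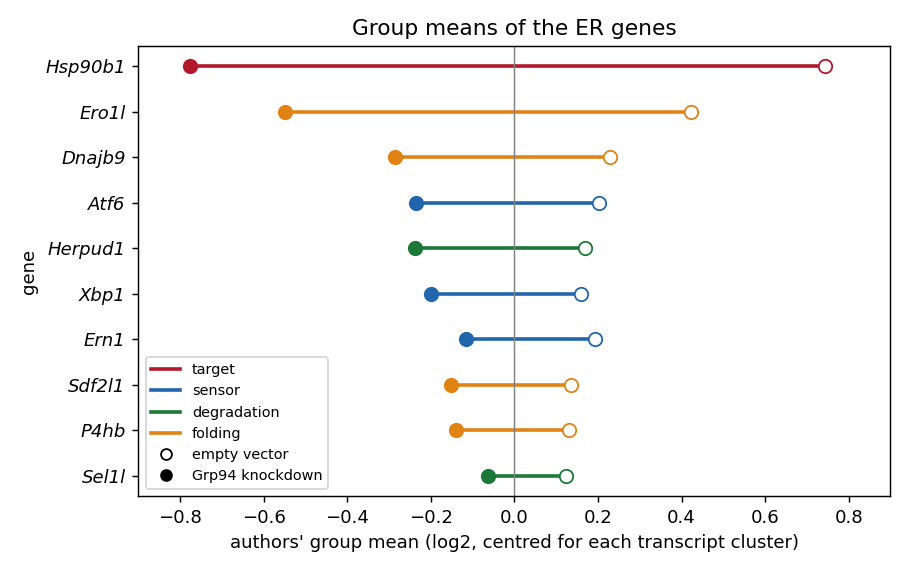
Group means of the 10 ER genes, as the authors deposited them (log2, centred for each transcript cluster). Open circles are the empty vector, filled circles the Grp94 knockdown, and colours the role of each gene. There are no error bars because the table holds 1 mean per group. All vector means lie above 0, from 0.12 to 0.74, and all knockdown means lie below it, from -0.06 to -0.78.

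The promoter of Hsp90b1 is shown first because it holds the element known to carry the response of ER chaperone genes to unfolded protein. The windows below are those of RefSeq on build GRCm38.p6, from 250 bases before the annotated start to 50 after it, in the direction of the gene. Matches were searched as exact letters on both strands, and a match is no proof of binding. In Hsp90b1 (chr10:86705395-86705694, minus strand) capitals mark the CCAAT box (CCAAT) and the ERSE (CCAAT, any 9 bases, then CCACG), which includes a CCAAT box.
Hsp90b1: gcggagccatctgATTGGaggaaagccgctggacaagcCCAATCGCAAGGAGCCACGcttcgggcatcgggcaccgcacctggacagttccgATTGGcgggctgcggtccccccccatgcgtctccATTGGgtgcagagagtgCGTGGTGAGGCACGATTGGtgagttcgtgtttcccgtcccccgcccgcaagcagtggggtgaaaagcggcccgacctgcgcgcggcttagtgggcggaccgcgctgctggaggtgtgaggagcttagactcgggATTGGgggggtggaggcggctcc
The window held 6 CCAAT boxes and 2 complete ERSE matches. The first ERSE ran from base -212 to -194 on the strand of the gene, and the second from -107 to -89 on the other strand. An ERSE match was found in 0.119% of all 32851 promoter windows and in no other window of the 9 genes that had one. Atf6 had no window in the table.

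The sensors were the next group examined, with Xbp1, a factor that acts downstream of the sensor IRE1, counted among them. Atf6 encodes an ER membrane protein that is cut in the Golgi to release a transcription factor. Its mean was 0.20 in the vector and -0.24 in the knockdown, a difference of -0.44 or a 1.35-fold decrease. Atf6 lay on chromosome 1, bases 172637345 to 172797899 on the minus strand, and was read by 32 probes.

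Xbp1, whose mRNA is spliced by IRE1 into the form that encodes the active factor, had a mean of 0.16 in the vector and -0.20 in the knockdown. The difference of -0.36 is a 1.28-fold decrease and falls just outside the threshold, as Herpud1 with a difference of -0.41 falls just inside it. The 29 probes (chromosome 11, plus strand, bases 5420644 to 5425895) give 1 value for the gene, so spliced and unspliced Xbp1 are not separated. The Xbp1 window (chr11:5520391-5520690) held no match to any of the 9 motifs searched.

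Ern1, the gene of IRE1, had the smallest difference of the sensors. Its mean was 0.19 in the vector and -0.12 in the knockdown, a difference of -0.31 or a 1.24-fold decrease, read by 45 probes on chromosome 11 (minus strand, bases 106258934 to 106349110). The Ern1 window (chr11:106487747-106488046) held 4 GC boxes (GGGCGG) and no CCAAT box. The sensors as a group spanned 0.13 log2 units, a narrower range than that of the folding genes. The difference of Hsp90b1 minus their median was -1.16 log2 units.

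Genes of ER-associated degradation were represented by Herpud1 and Sel1l. Herpud1 encodes a membrane protein that helps to assemble the degradation complex at the HRD1 ubiquitin ligase, and is a known target of the UPR. Its mean was 0.17 in the vector and -0.24 in the knockdown, a difference of -0.41 or a 1.32-fold decrease, from 27 probes on chromosome 8 (plus strand, bases 96910400 to 96919259).

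The Herpud1 window is shown because it holds the variant ERSE-II (ATTGG, any 1 base, then CCACG). Capitals mark CCAAT boxes and the ERSE-II in chr8:94386179-94386478, plus strand.
Herpud1: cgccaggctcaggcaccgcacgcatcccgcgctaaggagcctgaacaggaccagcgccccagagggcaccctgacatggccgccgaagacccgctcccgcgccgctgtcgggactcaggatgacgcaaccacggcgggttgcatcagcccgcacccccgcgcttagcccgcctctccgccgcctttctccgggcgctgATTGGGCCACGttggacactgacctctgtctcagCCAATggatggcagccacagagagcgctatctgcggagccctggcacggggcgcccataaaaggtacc
The ERSE-II ran from base -52 to -42 and overlaps 1 of the 2 CCAAT boxes of the window. It was found in 0.0365% of all windows.

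Sel1l encodes the adaptor that passes misfolded proteins to HRD1. It had the smallest difference of the 10 genes, -0.19 or a 1.14-fold decrease, with a mean of 0.12 in the vector and -0.06 in the knockdown. Its 46 probes were the most of any of the 10 (chromosome 12, minus strand, bases 93044483 to 93087597). Its rank of 1092 from the lowest put it near the middle of the table, where 45.6% of transcript clusters had a lower difference. The Sel1l window (chr12:91849108-91849407) held 4 CCAAT boxes and neither form of the ERSE.

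The folding genes varied most. Ero1l (now Ero1a) encodes the oxidase that recharges protein disulfide isomerase, and it is also known to be induced by low oxygen. Its mean was 0.42 in the vector and -0.55 in the knockdown. The difference of -0.97 is a 1.96-fold decrease, the second largest of the 10 genes and rank 28 of the table. It was read by 34 probes on chromosome 14 (minus strand, bases 45903996 to 45938202). Hsp90b1 still lay 0.55 log2 units lower.

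Dnajb9 encodes ERdj4, a J-domain partner of the chaperone Grp78 and a known XBP1 target. Its mean was 0.23 in the vector and -0.29 in the knockdown, a difference of -0.52 or a 1.43-fold decrease. It was read by 15 probes, the fewest of the 10 genes (chromosome 12, minus strand, bases 45306882 to 45311055). The Dnajb9 window (chr12:44210019-44210318) held 1 CCAAT box.

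Sdf2l1 and P4hb differed least among the folding genes. Sdf2l1, a partner of ER J-domain proteins, had a mean of 0.13 in the vector and -0.15 in the knockdown, a difference of -0.29 or a 1.22-fold decrease, from 25 probes (chromosome 16, minus strand, bases 17130231 to 17132458). P4hb, the classical protein disulfide isomerase, had a mean of 0.13 in the vector and -0.14 in the knockdown, a difference of -0.27 or a 1.21-fold decrease. P4hb was read by 34 probes (chromosome 11, minus strand, bases 120421295 to 120434250). Ero1l and P4hb act on each other in the same oxidation step, and their differences lay 3.6 times apart on the log2 scale. This ratio depends on the zero point, since re-centring on the median of all listed transcript clusters gave -0.81 for Ero1l and -0.11 for P4hb.

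Sdf2l1 and Ero1l are printed to set a window with CCAAT boxes beside one without. In Sdf2l1 (chr16:17132334-17132633, minus strand) capitals mark the CCAAT boxes, and in Ero1l (chr14:45318523-45318822, minus strand) the core ACGTG that is part of the binding site of the hypoxia factor HIF.
Sdf2l1: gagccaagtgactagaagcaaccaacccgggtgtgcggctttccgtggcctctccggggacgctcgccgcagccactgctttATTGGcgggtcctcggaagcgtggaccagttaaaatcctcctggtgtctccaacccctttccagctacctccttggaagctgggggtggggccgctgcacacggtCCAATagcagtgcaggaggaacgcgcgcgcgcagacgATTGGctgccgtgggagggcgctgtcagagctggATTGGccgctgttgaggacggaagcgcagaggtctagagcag
Ero1l: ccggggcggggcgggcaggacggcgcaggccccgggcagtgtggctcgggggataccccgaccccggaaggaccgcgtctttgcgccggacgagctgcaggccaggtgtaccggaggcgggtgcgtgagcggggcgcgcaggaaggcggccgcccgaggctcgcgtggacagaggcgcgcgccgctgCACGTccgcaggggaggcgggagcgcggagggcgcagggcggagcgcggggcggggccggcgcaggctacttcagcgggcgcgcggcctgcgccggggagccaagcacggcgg
Sdf2l1, with a difference of -0.29, held 4 CCAAT boxes, and Ero1l, with a difference of -0.97, held none. The pair does not stand for the other windows. Sel1l (-0.19) held 4, Herpud1 (-0.41) 2, and Dnajb9 (-0.52) and P4hb (-0.27) 1 each. Hsp90b1 (-1.52) held 6, but it is the target of the RNAi, so its difference cannot be set against its CCAAT boxes. Xbp1 (-0.36) and Ern1 (-0.31) held none. The ACGTG core of Ero1l began at base -63 on the other strand.

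**Figure D2:**
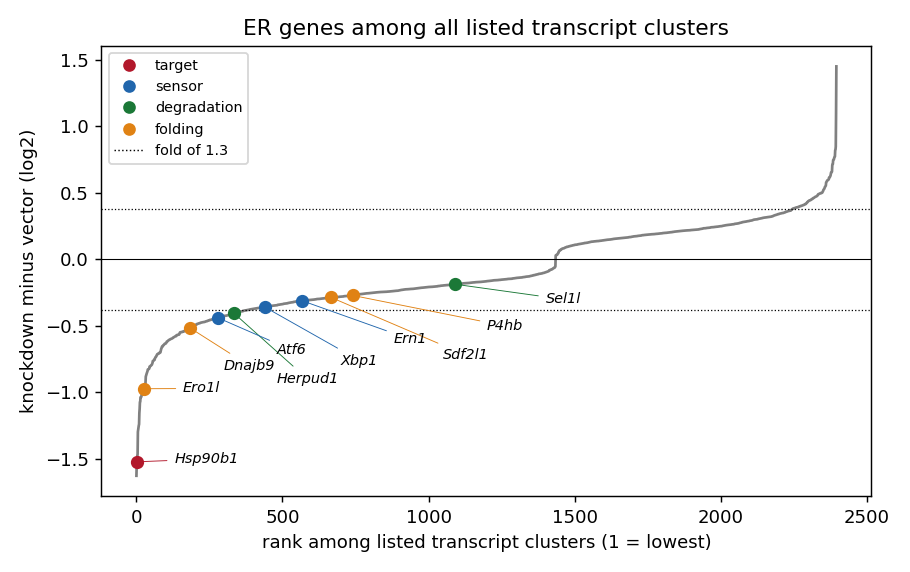
Differences of all 2395 listed transcript clusters (knockdown minus vector, log2), sorted from the lowest. Points are the 10 ER genes coloured by role, and dotted lines mark a fold of 1.3 in each direction. Hsp90b1 (rank 3) and Ero1l (rank 28) stand at the steep lower end, and the other 8 lie between ranks 184 and 1092. Few rows lie near 0 in this table, which is limited on the adjusted p.

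In order of difference, Hsp90b1 was followed by Ero1l, Dnajb9, Atf6, Herpud1, Xbp1, Ern1, Sdf2l1, P4hb and Sel1l. The gap from Hsp90b1 to Ero1l was 0.55 and that from Ero1l to Dnajb9 was 0.46 log2 units. From Dnajb9 on, neighbours lay between 0.02 and 0.08 log2 units apart. Whether any neighbours in this order differ beyond the spread of the arrays cannot be stated from group means. By role, the median difference was -0.36 for the 3 sensors, -0.30 for the 2 degradation genes and -0.40 for the 4 folding genes, against -1.52 for the target. The ranges of the sensor, degradation and folding genes overlapped, so none of these roles stood apart from the others. The folding genes held both Ero1l and P4hb.

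Over the 9 promoter windows, CCAAT boxes were found in 6, namely Hsp90b1, Herpud1, Sel1l, P4hb, Dnajb9 and Sdf2l1, with 18 copies in all. Among all windows of the same length 37.4% held one. The CCACG part of the ERSE by itself was found in 8 of the 9 windows and in 32.8% of all windows. GC boxes were found in 5 windows and in 35.7% of all. The ACGTG core, which can overlap CCACG, was found in Herpud1, Ero1l, P4hb and Dnajb9 and in 19.6% of all windows. The NRF2 core TGACNNNGC was found in 3 windows (12.4% of all). The XBP1 element TGACGTGG (0.676% of all) and the ATF4 element TGATGNAAT (0.965% of all) were found in none of the 9. Among listed genes with a single symbol and a window, 971 were lower and 609 higher. CCAAT boxes were found in 46.4% of the lower and 40.9% of the higher, CCACG in 55.7% and 56.5%, and GC boxes in 69.7% and 70.0%. The ACGTG core was found in 33.7% and 29.7%, and the NRF2 core in 19.5% and 18.2%. Over all genes with a window the shares were 41.1% for CCAAT boxes, 35.5% for CCACG and 38.2% for GC boxes. They were 21.8% for the ACGTG core and 14.0% for the NRF2 core. Against these shares per gene, listed genes held each of these motifs more often, except CCAAT boxes in the higher genes. The 9 windows had a median GC content of 66.7% against 52.7% over all windows, and the part of GC content in these motif counts was not tested.

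**Figure D3:**
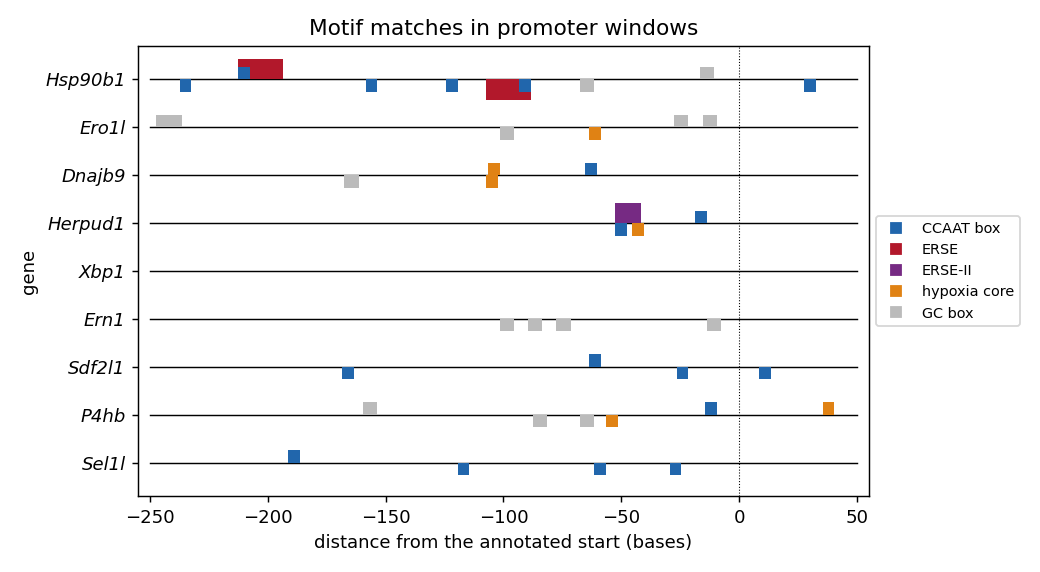
Motif matches in the promoter windows of the 9 genes that had one, by distance from the annotated start in bases. Blocks above a line are on the strand of the gene and blocks below on the other strand, and taller blocks are ERSE and ERSE-II. Hsp90b1 has 2 ERSE and 6 CCAAT boxes, Herpud1 the ERSE-II, and Xbp1 no match.

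Genes with a complete ERSE were looked up in the table. An ERSE match was found in 37 genes of the reference, and 10 of them were in the lists of ER genes drawn up for this comparison. Of these 10, only Hsp90b1 was in the table. The other 9 were Hspa5 (the gene of Grp78), Calr and Canx (lectin chaperones), Pdia6, Ero1lb, Dnajc3, Creld2, Derl3 and Syvn1 (the gene of HRD1). A gene outside the table may have missed the limit on the adjusted p or have been removed for low expression, and it is not shown to be unchanged. Of the 37 genes, 2 were in the table with a single symbol, Hsp90b1 and Alg12, a mannosyltransferase of the ER (-0.17) that was named after its value was seen. This is 5.41% of the ERSE genes, beside the 5.85% of all genes with a window that were listed with a single symbol. Hsp90b1 is itself the target of the knockdown, so a count of 2 that includes it cannot show how ERSE genes compare with the rest. Of 12 genes with an ERSE-II match, 5 were listed, of which 3 were lower and 2 higher. Among them Dnajb11, a Grp78 partner, had a difference of 0.19 and Herpud1 one of -0.41.

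The rest of the ER machinery was then described from lists of genes drawn up by function, with earlier results of these data known. Their counts are therefore descriptions and no evidence about the lists as groups. The lists hold 166 genes, of which 45 were in the table, 39 lower and 6 higher. Leaving out the 10 genes above, 29 were lower and 6 higher, with a median difference of -0.25. Of all listed transcript clusters 59.9% were lower, with a median of -0.16, and this is also the background for each list below. Re-centred on that median, 24 of the 35 other genes were below 0. Of these 35 genes, 9 were lower past a fold of 1.3 and 0 were higher past it, where 16.1% and 6.26% of all transcript clusters passed in these directions. Of the 9, 8 were from the list named PERK and stress response feedback, and the other was Srpr. The count is therefore not spread over the lists.

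Among UPR sensors and transcription factors 8 of 19 genes were in the table, 7 lower and 1 higher, with a median of -0.30. The transcript cluster of Ddit3, the gene of Chop, had a difference of -0.34, but it also carries the symbol Mars, so its value cannot be given to Ddit3 alone. Atf4, the factor translated when PERK is active, had a difference of -0.26. The higher gene was Nfya (0.22), which encodes the subunit of NF-Y that reads CCAAT, and it is named because its direction was seen. Eif2ak3, the gene of PERK, was not in the table.

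Among ER chaperones of the HSP families and their partners 4 of 22 genes were in the table, 3 lower and 1 higher. The lower ones were Hsp90b1, Dnajb9 and Sdf2l1, and the higher one was Dnajb11. Hspa5 was not in the table. Of the HSP90 family, Hsp90ab1, which encodes the constitutive cytosolic HSP90, was listed with a difference of -0.06, a 1.04-fold decrease. Hsp90aa1, the inducible cytosolic form, and Trap1, the mitochondrial form, were not listed. Of 24 genes of this family and of cytosolic or mitochondrial chaperones, Hsp90b1 and Hsp90ab1 were thus the only 2 in the table.

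Among genes of oxidative folding 8 of 24 were in the table, 7 lower and 1 higher, with a median of -0.26. After Ero1l the largest difference was that of Tmx4, a membrane thioredoxin (-0.37), and after P4hb that of Prdx4, a peroxiredoxin of the ER (-0.26). The higher gene, named after its value was seen, was Tmx2, which had 2 transcript clusters. The one with the larger absolute difference was counted, with 0.16, and the other is not described here.

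Among 34 genes of ER-associated degradation 6 were in the table, 4 lower and 2 higher, with a median of -0.17. Herpud1 led, followed by H47 (-0.25), the gene of a selenoprotein that recruits VCP, and by Sel1l. Herpud2, a paralogue of Herpud1, was higher by 0.18, so the pair lay on opposite sides of 0. Ube2j1, a ubiquitin-conjugating enzyme of the ER membrane named after its value was seen, was higher by 0.11.

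Among 31 genes of ER translocation and glycosylation 9 were in the table, 8 lower and 1 higher, with a median of -0.17, beside -0.16 for all listed transcript clusters. Srpr, the receptor for the signal recognition particle, had the largest difference (-0.46) and was read by 10 probes. Prkcsh, the beta subunit of glucosidase II, had a difference of -0.28. Srp68, a protein of the signal recognition particle, and Ostc, of the oligosaccharyltransferase, had differences of -0.20 each. The higher gene was Rpn1 (0.09), also of the oligosaccharyltransferase and also named after its value was seen.

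The list named PERK and stress response feedback held the largest differences of the lists outside the 10 genes. Of its 13 genes 9 were in the table and all 9 were lower, with a median of -0.57. Of all listed transcript clusters 59.9% were lower. A fold of 1.3 was passed by 8, where 16.1% of all passed it downwards. This list too was chosen with earlier results known, so neither count is evidence about it as a group. The 8 include Atf5, whose transcript cluster also carries the symbol Nup62-il4i1. Trib3, a pseudokinase that restrains ATF4 and Chop, had a difference of -0.94, close to that of Ero1l. Nupr1, a stress-induced nuclear protein, had a difference of -0.78 and Ddit4, an inhibitor of mTORC1, one of -0.73. Ppp1r15a, which encodes the Gadd34 subunit that reverses the action of PERK, had a difference of -0.70. Asns, the gene of asparagine synthetase, was the gene that stayed within the fold of 1.3, with a difference of -0.23, and is named for that reason after its value was seen.

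**Figure D4:**
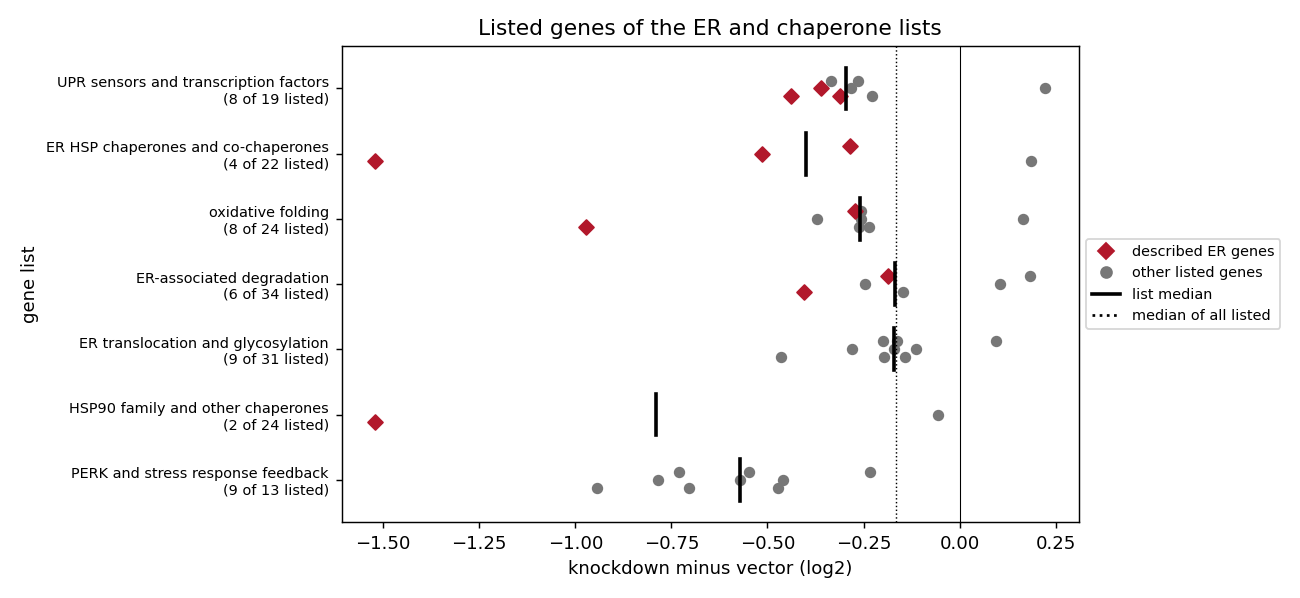
Differences (knockdown minus vector, log2) of the listed genes of each ER or chaperone list. Diamonds are the 10 genes described first, circles other listed genes, black bars list medians, and the dotted line the median of all listed transcript clusters (-0.16). The 9 listed genes of PERK and stress response feedback all lie left of 0 (median -0.57), and the target is the lowest gene of any list (-1.52).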

How the data were processed

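The authors labelled total RNA from the transfected N2a cultures and hybridised it to Affymetrix Mouse Gene 1.0 ST arrays, 4 per group, with analysis in Agilent GeneSpring GX. Genes below the 20th percentile of expression had been left out by the authors. The deposited values are log2 group means, centred by the authors for each transcript cluster. The deposited number of probes (column total_probes) was used as given, and the adjusted p-values of the authors' comparison were read only to check that 0 rows exceeded 0.01. The p-values, fold changes and directions of the authors' comparison, 5 columns in all, were not used. Probe summarization, normalization between arrays and genome build are not given in the sources used here. Precision is limited by having 4 arrays in each group.

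Symbols were split where a row held several, sample titles gave the groups, and differences were the knockdown mean minus the vector mean. No model, standard error or test could be had from group means. For a gene with several rows, the row of the largest absolute difference was used. Promoter windows of RefSeq (GRCm38.p6) were matched by gene identifier for 9 of 10 genes, and motif shares were taken over all windows. The 10 genes and the lists were chosen with earlier results of these data known, and Casp12 and Nrf1, misplaced in the lists and not in the table, were taken out later. Named genes were the 10, the 4 largest absolute differences of each list, Hspa5, Ddit3, Atf4, Eif2ak3 and the HSP90 family, and the 3 genes nearest to Hsp90b1. Genes outside this rule are marked as named after their values were seen, or are named because they hold an element or share a small count. Alternatives changed the fold threshold (1.2, 1.5 and 2), the zero point, the rows counted and the promoter window. Calculations used Python 3.11.15, numpy 2.4.6 and pandas 2.3.3, with matplotlib 3.10.9, and scripts were tested on simulated data.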

Additional observations from a re-analysis of the deposited data

How the results depend on the processing

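Re-centring on the median of all listed transcript clusters (-0.16) kept all 10 genes lower. The differences became -1.36 for Hsp90b1, -0.81 for Ero1l, -0.35 for Dnajb9, -0.27 for Atf6, -0.24 for Herpud1, -0.20 for Xbp1, -0.15 for Ern1, -0.12 for Sdf2l1, -0.11 for P4hb and -0.023 for Sel1l. Past a fold of 1.3 were then 2 of the 10 (Hsp90b1 and Ero1l), and 159 transcript clusters were lower and 527 higher, which follows in part from the construction. The list medians became -0.13 for UPR sensors and factors, -0.24 for ER chaperones, -0.095 for oxidative folding, -0.0025 for degradation, -0.0053 for translocation and glycosylation, -0.41 for PERK feedback and -0.62 for the HSP90 family and other chaperones. The last is the median of 2 genes, the target and Hsp90ab1, which turned to 0.11. Of the 35 other listed genes, 5 changed sign. At folds of 1.2, 1.5 and 2, the number of the 10 genes that were lower was 9, 2 and 1, the lower transcript clusters were 761, 128 and 20, and the higher ones 355, 34 and 2. Rows with 1 symbol gave 357 lower and 124 higher. With the window limited to the bases before the start, 8 of 9 motif counts were equal and the NRF2 core fell from 3 to 2 genes. No paired analysis was possible because the table holds group means and no value for each array, and for the same reason leaving out single arrays was not run.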

Other observations

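Markers of the sympathetic lineage from which neuroblastoma arises were looked up in the table, which keeps no level of expression and so cannot show whether a marker is present. Of 13 markers 5 were listed, 2 lower and 3 higher in the knockdown. Dbh, the gene of dopamine beta-hydroxylase, had the largest difference (0.49), followed by the transcription factors Hand2 (0.26) and Isl1 (0.24). Stmn2, a regulator of microtubules in neurites, had a difference of -0.17 and Th, the gene of tyrosine hydroxylase, one of -0.12. Of 5 markers of other cells only Vim was listed, with a difference of -0.11.

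The XBP1 element TGACGTGG was found in the promoter windows of 193 genes, of which 24 were in the table with a single symbol, 18 lower and 6 higher, with a median of -0.30. These are 12.4% of the genes with the element, beside 5.85% of all genes with a window. A raised listed share is not particular to this element. The GC box was found in 69.7% of listed lower and 70.0% of listed higher genes, against 38.2% of all genes with a window. Of all listed transcript clusters 59.9% were lower, with a median of -0.16. The 4 largest absolute differences among the 24 are given here, named after their values were seen. Isg20, the gene of an exonuclease, had a difference of -1.0 and Hk2, the gene of hexokinase 2, one of -0.52. Kdelr3, which encodes a receptor that returns escaped ER chaperones, had a difference of -0.85 and Sec24d, a coat protein of vesicles that leave the ER, one of -0.49.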
